A study of Homo sapiens with 4 samples.

Results

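Genes whose symbol begins with RBM, for RNA-binding motif protein, were followed in A549 cells, a human lung adenocarcinoma line, with and without a knockdown of RBM10. The members were the rows of the expression table whose symbol, looked up from the Ensembl gene ID, starts with RBM, and the splicing events of those genes. They came to 42 of 17041 genes and 20 of 3768 events, the events lying in 12 of 2166 genes. Of the 42 rows, 38 were protein-coding RBM genes, 1 was RBM14-RBM4, a readthrough of neighbouring genes, and 3 were noncoding (RBM15-AS1, RBM26-AS1 and RBM33-DT). The rule used the name alone and no measured value, but it was set with earlier results of these data known.

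There were 2 libraries of RBM10 knockdown cells and 2 libraries of RBM10 wild-type cells. Knockdown cells carried a lentiviral shRNA against RBM10 and had been kept in puromycin at 1 µg/mL for 10 to 14 days, as a selected population. The labels name no control construct and no puromycin for the wild-type cells, so loss of RBM10 and the steps of transduction and selection cannot be told apart. All 4 libraries came from polyadenylated RNA, read as pairs of 100 bp, and the labels put them in 1 batch. Read counts are not in the files, so no depth per library can be given from them. The labels do not say whether replicates were separate cultures, so the spread between replicates that enters the p-values may be technical. The test used here, limma, also draws that spread towards a value fitted over all tested genes or events.

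RBM proteins carry RNA recognition motifs and act at most steps of an mRNA's life. RBM10 and its relatives RBM5 and RBM6 add zinc fingers, an OCRE domain and a G-patch, bind pre-mRNA around alternative exons and bias the spliceosome there, in the case of RBM10 mostly towards skipping the exon. RBM10 is recurrently mutated in lung adenocarcinoma. Several splicing regulators, RBM39 among them, carry exons with a stop codon in their own genes, and transcripts that include such an exon are open to nonsense-mediated decay (NMD).

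The sequences below belong to the members in which splicing differed most between the groups, and are shown because the position of a stop codon or the length of the exon sets what the included form encodes. They are from GENCODE v29 transcripts, in hg38, 5′ to 3′. For RBM39 (minus strand, exon at chr20:35740525-35740597) and RBM25 (plus strand, exon at chr14:73100301-73100362), the run starts with the last 30 bases of the exon before and follows the alternative exon to its first in-frame stop codon, in capitals. For RBM26 (minus strand, chr13:79353153-79353224) and RBM42 (plus strand, chr19:35632936-35633001), the alternative exon is in capitals between 30 coding bases from each side. For RBM33 (plus strand, chr7:155763809-155763811), capitals mark the 3 bases that lie between its alternative 3′ splice sites, with 24 coding bases on each side.
RBM39: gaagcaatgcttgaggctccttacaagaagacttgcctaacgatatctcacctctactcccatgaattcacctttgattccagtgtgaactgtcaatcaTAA
RBM25: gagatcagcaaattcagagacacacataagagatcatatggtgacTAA
RBM26: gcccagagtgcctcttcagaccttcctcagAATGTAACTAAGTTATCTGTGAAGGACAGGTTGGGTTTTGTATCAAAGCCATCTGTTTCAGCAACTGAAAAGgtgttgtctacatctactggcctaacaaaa
RBM42: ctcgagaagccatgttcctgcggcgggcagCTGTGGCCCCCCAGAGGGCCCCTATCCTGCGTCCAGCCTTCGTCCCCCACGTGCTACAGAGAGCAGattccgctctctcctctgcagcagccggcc
RBM33: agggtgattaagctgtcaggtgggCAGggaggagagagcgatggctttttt

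The RBM39 exon is 73 bp long and is not a multiple of 3. In the annotation it is in 9 transcripts, 8 of which are classed as NMD transcripts and have their stop codon in it, after 69 coding bases. The RBM25 exon of 62 bp is in 1 annotated transcript, classed as protein coding, where it ends the reading frame after 15 coding bases. An annotated longer last exon of RBM25 begins at the same splice site, so its junction does not tell which end is used. The exons of RBM26 (72 bp) and RBM42 (66 bp) are multiples of 3 and wholly coding, so their inclusion adds amino acids and keeps the frame.

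**Figure D1:**
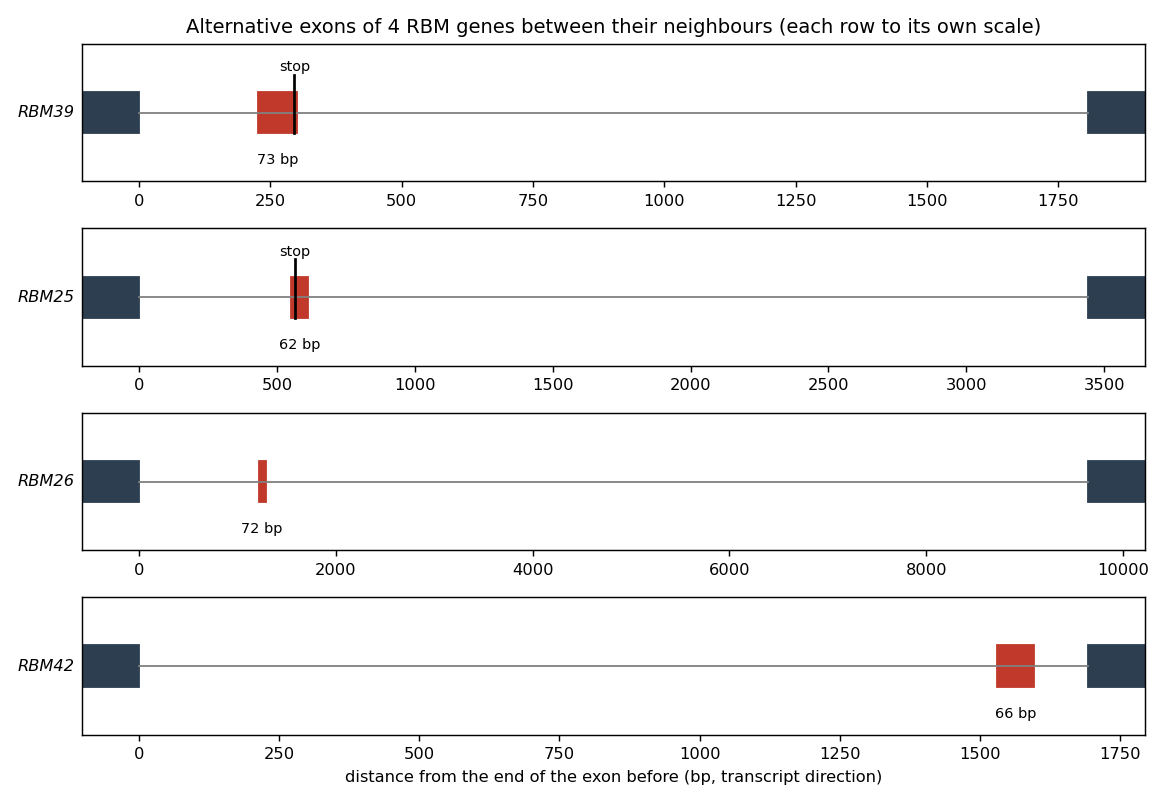
Position of the alternative exon (red) between the exons it is spliced to (dark blocks, drawn short) in RBM39, RBM25, RBM26 and RBM42; the x axis is the distance in bp from the end of the exon before, each row to its own scale, and a black line marks the stop codon. The exons are 73, 62, 72 and 66 bp long, and those of RBM39 and RBM25 hold a stop codon.

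Expression was read as RPKM, in which reads are divided by the length of the gene and the size of the library. Levels spanned from below 0.1 RPKM to about 100 RPKM. By the mean over both groups, 4 of the 38 protein-coding genes were at 50 RPKM or more, 5 between 10 and 50, 20 between 1 and 10 and 9 below 1 RPKM. RBM42, a component of the tri-snRNP, was highest, at 96.7 ± 13.1 RPKM in knockdown and 108 ± 14.2 RPKM in wild type (SD, n = 2 each), followed by RBM8A, RBMX and RBM3. RBM42 and RBM8A did not differ beyond their spread in wild type, nor did RBMX and RBM3 in either group. Only 17 of 980 coding genes with a single exon are in the table, against 14211 of 18971 with several (1.73% and 74.9%), so the RPKM seem to be built from junction-spanning reads. How far this lowers RBM genes with few introns was not tested.

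**Figure D2:**
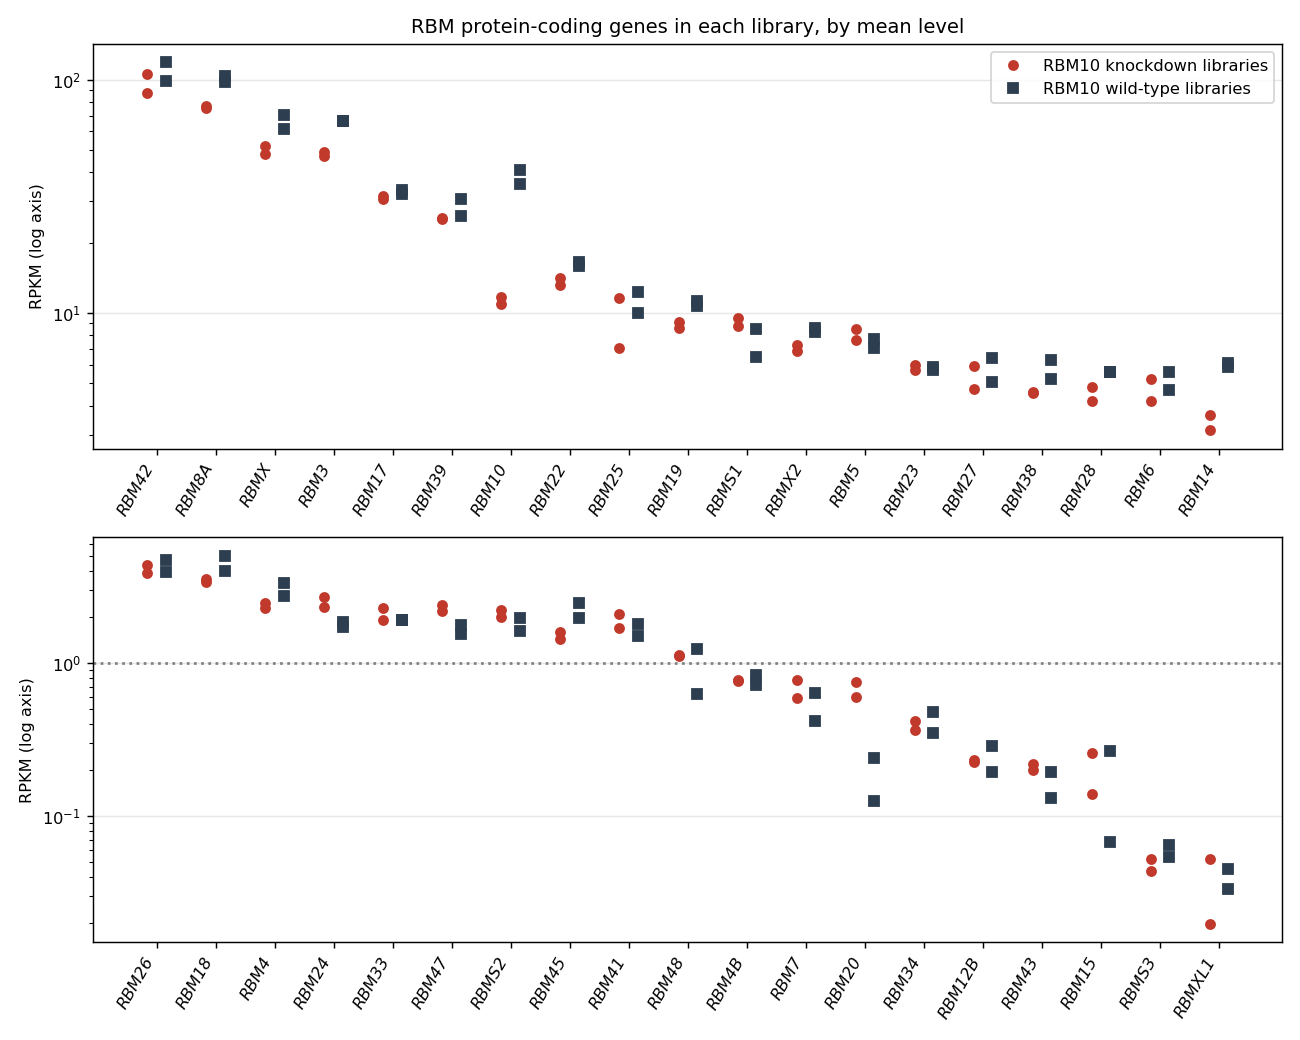
RPKM (log axis) of the 38 RBM protein-coding genes in each library, ordered by mean level, with knockdown libraries as red circles and wild-type libraries as dark squares. RBM10 shows the widest gap between the groups among genes above the dotted line at 1 RPKM.

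Markers moved with the groups too. The 5 markers listed for the line (KRT8, KRT18, EPCAM, CDH1 and CDH2, the last a cadherin of mesenchymal cells) summed to 2442 and 2546 RPKM in the knockdown libraries and to 1232 and 1358 RPKM in the wild-type libraries, mostly KRT18 and KRT8. Of the 5, CDH2 was among those that passed as higher (limma adjusted p = 0.00727), and CDH1, the epithelial cadherin, did not pass (limma adjusted p = 0.497). The 3 NRF2 targets listed as high in A549 summed to 2315 and 2403 RPKM in knockdown and to 4100 and 4085 RPKM in wild type. Fibroblast markers (4 of 5) summed to 2.11 and 2.01 RPKM in knockdown and to 0.561 and 0.838 RPKM in wild type, nearly all THY1, while LUM, PDGFRA and PDGFRB were below 0.2 RPKM. Leukocyte markers (2 of 4) reached at most 1.02 RPKM in sum and PECAM1, the 1 endothelial marker in the table, at most 0.0130 RPKM. Their part in the differences of RBM genes was not tested.

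In knockdown cells RBM10 fell to 29.5% of wild type, and RBM14, RBM3, RBM8A and RBMX also fell, to between 56.7% and 76.0% of their wild-type means. None of the 29 protein-coding RBM genes tested passed as higher. Log2 changes here are differences of log2(RPKM + 1), which come out smaller than those of RPKM in genes near 1 RPKM. Of the 42 members, 31 reached a mean of 1 RPKM in one group or the other and were tested. Of these, 6 fell and 1 rose in limma (Benjamini-Hochberg adjusted over all 10182 tested genes), and 24 did not pass. Over all tested genes, 7.03% fell, 15.3% rose and 22.3% did either. Thus 19.4% of the tested members fell, while the 22.6% past the test in either direction is close to the share over all genes. The 6 that fell include RBM10, the target of the shRNA, and RBM14-RBM4, which can share reads with RBM14. All counts and the median over the 31 members hold both of these rows. The median log2 change was -0.16 over the 31 members and 0.023 over all tested genes, and 21 of the 31 had a value below 0 (67.7%, against 46.8% of all tested genes). In 16 of the 31, both knockdown libraries lay below both wild-type libraries (51.6%, against 27.3% of all tested genes), and in 5 both lay above (34.3% of all tested genes). Summed over the 38 protein-coding genes, RPKM came to 452 and 448 in the knockdown libraries and 558 and 567 in the wild-type libraries. Without RBM10 the sums were 440 and 437 in knockdown and 522 and 526 in wild type. The genes at the highest levels weigh most in these sums. Over all genes, RPKM summed to 294619 and 285579 in the knockdown libraries and to 295326 and 304918 in the wild-type libraries.

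**Figure D3:**
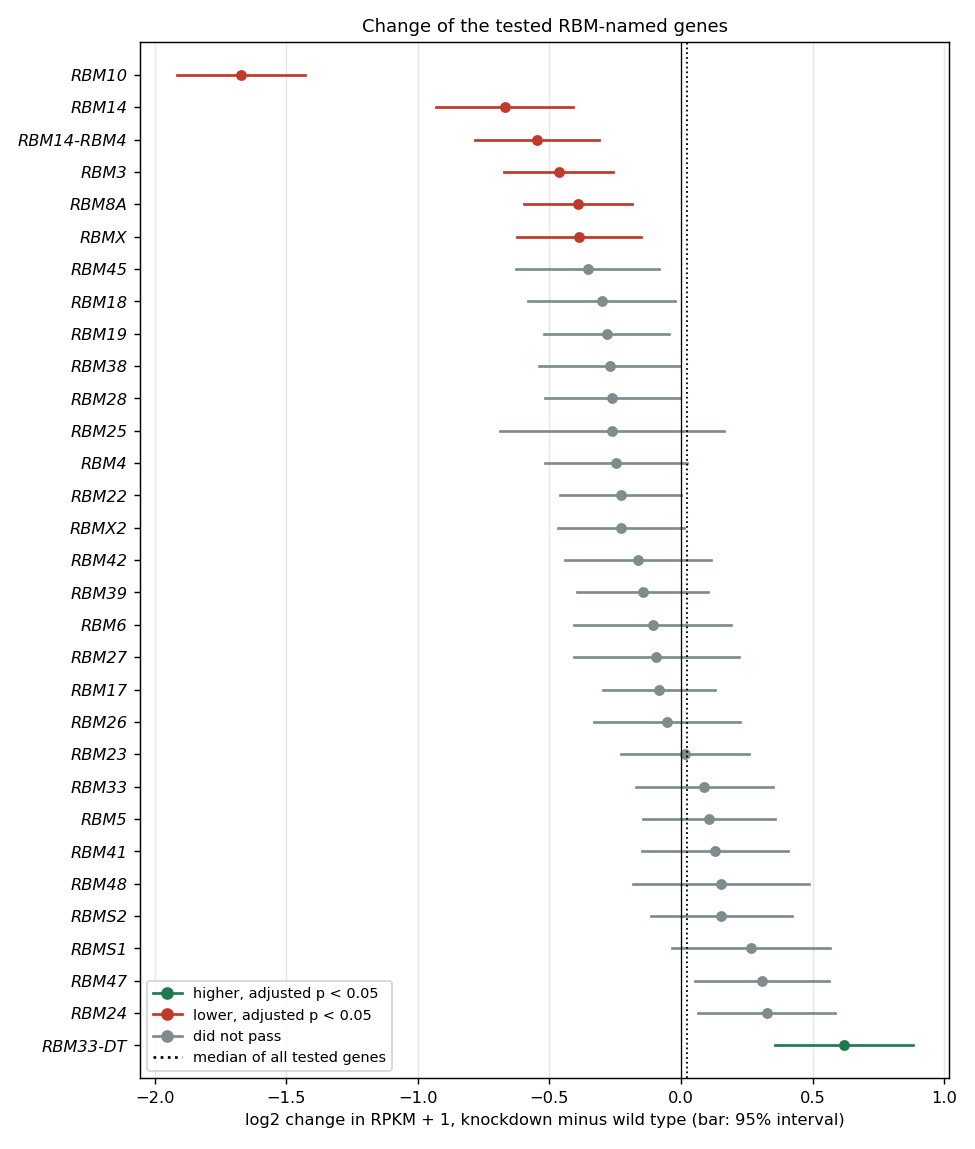
Log2 change (knockdown minus wild type) of the 31 tested RBM-named genes with its 95% interval; red marks genes lower and green genes higher at an adjusted p under 0.05, grey those that did not pass, and the dotted line is the median of all tested genes, 0.023. RBM10 stands apart at -1.67, and the intervals of most other members lie close to or across 0.

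RBM10, on the X chromosome (hg38, bases 47144869 to 47186813 of the plus strand), had 11.6 and 10.9 RPKM in the knockdown libraries, against 35.5 and 40.8 RPKM in wild type. The groups were far apart, in the direction of the labels. Its log2 change was -1.67 (SE 0.11, limma adjusted p = 1.01e-05). RBM5, its closest relative and a tumour suppressor candidate in lung cancer, was at 7.61 and 8.48 RPKM in knockdown and at 7.72 and 7.09 RPKM in wild type. RBM6, the neighbour of RBM5 on chromosome 3, was at 4.18 and 5.20 RPKM in knockdown and at 5.58 and 4.67 RPKM in wild type. In both genes the groups overlapped, and neither passed (limma adjusted p = 0.539 and 0.601). The 95% interval of the log2 change was -0.15 to 0.36 for RBM5 and -0.40 to 0.19 for RBM6.

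RBM14, a coactivator and paraspeckle protein, had the largest decrease after RBM10. It was at 3.64 and 3.14 RPKM in the knockdown libraries and at 5.85 and 6.11 RPKM in wild type. The groups did not overlap, and the log2 change was -0.67 (SE 0.12, limma adjusted p = 0.00302). RBM14-RBM4, the readthrough that starts at the same first exon as RBM14 and runs into RBM4, was at 9.76 and 9.49 RPKM in knockdown and at 13.9 and 15.1 RPKM in wild type, with a log2 change of -0.55 (SE 0.10, limma adjusted p = 0.0052). Reads of RBM14, RBM14-RBM4 and RBM4 can be split between them by the counting, so their separate values are uncertain. RBM4, a splicing regulator, was at 2.30 and 2.47 RPKM in knockdown and at 2.73 and 3.32 RPKM in wild type and did not pass (limma adjusted p = 0.176).

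RBM3, a protein induced by mild cold that promotes translation, was at 47.2 and 48.8 RPKM in knockdown libraries, against 66.5 and 66.7 RPKM in wild-type libraries. Replicates lay close together and the groups well apart, with a log2 change of -0.47 (SE 0.09, limma adjusted p = 0.00602). RBM8A, known as Y14, is a core part of the exon junction complex that marks spliced mRNA and feeds NMD. It was at 77.1 and 75.4 RPKM in knockdown and at 97.4 and 103 RPKM in wild type, a log2 change of -0.39 (SE 0.09, limma adjusted p = 0.0139). Without knockdown replicate 1 or knockdown replicate 2, RBM8A no longer passed (limma adjusted p = 0.0603 and 0.0911).

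RBMX, an X-linked hnRNP that acts in splicing and in chromosome cohesion, was at 47.9 and 52.0 RPKM in knockdown and at 70.3 and 61.1 RPKM in wild type. The groups did not overlap, and the log2 change was -0.39 (SE 0.11, limma adjusted p = 0.0267). That call was lost without knockdown replicate 1 or wild-type replicate 1, under quantile or cyclic loess normalization, and without a filter on low values. RBMXL1, an RBMX retrocopy that may share reads with it, stayed below 0.1 RPKM in every library. RBMX2, a spliceosome protein, was at 6.86 and 7.25 RPKM in knockdown and at 8.24 and 8.62 RPKM in wild type and did not pass (limma adjusted p = 0.161).

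The only member past the test as higher was RBM33-DT, a noncoding RNA transcribed divergently from RBM33. It was at 2.08 and 2.51 RPKM in the knockdown libraries and at 1.11 and 1.17 RPKM in wild type. Its knockdown mean was 201% of its wild-type mean, and its log2 change in RPKM + 1 was 0.62 (SE 0.12, limma adjusted p = 0.00478). RBM33 itself, which acts in mRNA export and RNA demethylation, was at 1.91 and 2.30 RPKM in knockdown and at 1.92 and 1.91 RPKM in wild type, with overlapping groups (limma adjusted p = 0.626). In the annotation, 26 of the 42 members share bases with a gene of the other strand, among them RBM10, RBM3, RBM8A, RBMX, RBM33 and RBM33-DT. The use of strand in counting is not given in the sources used here, so these values could hold reads of the partner.

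Among the 7 spliceosome members, 0 passed limma's adjusted test and 0 had an unadjusted p under 0.05. In 4 of the 7 both knockdown libraries lay below wild type, against 27.3% of all tested genes. RBM17, which pairs with U2 snRNP factors, was at 30.8 and 31.6 RPKM in knockdown and at 32.5 and 33.7 RPKM in wild type. RBM22, which contacts the catalytic core of the spliceosome, was at 13.2 and 14.1 RPKM in knockdown and at 16.4 and 15.9 RPKM in wild type (limma adjusted p = 0.141). RBM23, a relative of RBM39, was at 5.97 and 5.71 RPKM in knockdown and at 5.86 and 5.67 RPKM in wild type. Its 95% interval of -0.23 to 0.26 is centred near 0.

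RBM39, a coactivator of splicing that partners U2AF, was at 25.6 and 25.4 RPKM in knockdown and at 30.9 and 25.9 RPKM in wild type. RBM25, which acts with U1 snRNP, was at 7.05 and 11.6 RPKM in knockdown and at 12.3 and 9.96 RPKM in wild type, with knockdown replicate 1 well below the other libraries. Without knockdown replicate 2, RBM25 passed as lower (log2 change -0.58, limma adjusted p = 0.0128), and without knockdown replicate 1 its log2 change was 0.060. RBM42 was at 106 and 87.5 RPKM in knockdown and at 98.4 and 118 RPKM in wild type. None of RBM39, RBM25 and RBM42 passed with all libraries (limma adjusted p = 0.381, 0.359 and 0.384).

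Another 7 of the 31 tested members had an unadjusted p under 0.05 in limma and did not pass adjustment. Over all genes, the same held for 1349 of the 10182 tested. RBM45, an RNA-binding protein of neural development, was at 1.43 and 1.59 RPKM in knockdown and at 2.46 and 1.97 RPKM in wild type (limma adjusted p = 0.0644), and passed as lower under quantile, cyclic loess and TMM-like scaling and without wild-type replicate 2. RBM24, a regulator of muscle splicing, and RBM47, a cofactor of C-to-U editing, were above wild type in both knockdown libraries. RBM24 was at 2.68 and 2.31 RPKM in knockdown and at 1.85 and 1.73 RPKM in wild type (limma adjusted p = 0.0732). RBM47 was at 2.18 and 2.40 RPKM in knockdown and at 1.77 and 1.55 RPKM in wild type (limma adjusted p = 0.0839). The other 4 were RBM19 and RBM28, which act in ribosome production, RBM38, a p53 target, and RBM18. All 4 lay below wild type in both knockdown libraries, with log2 changes between -0.30 and -0.26.

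In the remaining tested members, the RNA decay and export factors RBM26 and RBM27, the minor spliceosome members RBM41 and RBM48, and the single-strand binding proteins RBMS1 and RBMS2, log2 changes lay between -0.094 and 0.27 and none passed. RBM41 was at 1.70 and 2.09 RPKM in knockdown and at 1.81 and 1.49 RPKM in wild type, and RBM26 at 3.85 and 4.36 RPKM in knockdown and at 4.68 and 3.92 RPKM in wild type, with overlapping groups in both. RBMS1, at 8.80 and 9.49 RPKM in knockdown and at 8.53 and 6.46 RPKM in wild type, passed as higher without wild-type replicate 1 (limma adjusted p = 0.0316) but not with all libraries (limma adjusted p = 0.188). RBM48 entered the test through its knockdown mean of 1.12 RPKM, its wild-type mean being 0.926 RPKM.

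The 11 untested members were RBM4B, RBM7, RBM12B, RBM15, RBM20, RBM34, RBM43, RBMS3, RBMXL1, RBM15-AS1 and RBM26-AS1. Their group means lay below 1 RPKM in both groups. RBM20, a splicing factor of heart muscle, was at 0.595 and 0.751 RPKM in knockdown and at 0.238 and 0.125 RPKM in wild type, and passed as higher in limma when no filter on low values was set. RBM7, of the nuclear exosome targeting complex, was at 0.776 and 0.588 RPKM in knockdown and at 0.633 and 0.416 RPKM in wild type, with overlapping groups. The groups also overlapped for RBM12B, at 0.224 and 0.233 RPKM in knockdown and at 0.289 and 0.193 RPKM in wild type, and for RBM15, at 0.258 and 0.139 RPKM in knockdown and at 0.0673 and 0.266 RPKM in wild type.

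Splicing was read as PSI, the share of reads that use an examined junction in a set of competing junctions, as a fraction from 0 to 1. Every event in the deposited table has a PSI spread of at least 0.15 across the libraries, and the table gives no read counts, so the depth behind each PSI is unknown. RBM10 and RBM5 had 0 listed events. The 20 listed RBM events were 11 cassette-exon, 5 alternative 3′ splice site, 2 alternative C-terminus, 1 alternative promoter and 1 intron retention event, as the authors' deposited table types them. Several share a junction or are the mirror image of another, so they are not independent.

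Of the 19 RBM events with a value in all libraries, 3 in 2 genes passed an unadjusted rule (limma p under 0.05 with PSI at least 0.1 apart), a share no higher than the 18.4% of all 3744 tested events, so the count is no result about RBM genes as a group. In these 3, knockdown cells had a higher PSI for splicing into the stop-containing exon of RBM39, and lower PSI for splicing past it and past the stop-containing exon of RBM25. With adjustment 0 of the 19 passed, against 0.107% of all events, and the smallest adjusted p among them was 0.267 (limma). In 10 of the 19 the groups did not overlap, a share close to the 54.2% over all events.

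For RBM39, the junction into the 73-bp exon had a PSI of 0.427 and 0.364 in the knockdown libraries and of 0.195 and 0.182 in the wild-type libraries. The junction that skips it had a PSI of 0.447 and 0.494 in knockdown and of 0.688 and 0.676 in wild type. Knockdown libraries were thus on the side of inclusion in both junctions. The differences were 0.207 (SE 0.0849, limma adjusted p = 0.269) and -0.212 (SE 0.0841, limma adjusted p = 0.267), both past the unadjusted rule only. The authors' deposited table annotates the included form as subject to nonsense-mediated decay.

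For RBM25, the junction past the 62-bp exon had a PSI of 0.673 and 0.661 in knockdown and of 0.911 and 0.853 in wild type, a difference of -0.215 (SE 0.0846, limma adjusted p = 0.267) that passed the unadjusted rule only. The junction into the exon had a PSI of 0.30 and 0.168 in knockdown and of 0.0806 and 0.0963 in wild type, in the opposite direction and without passing (difference 0.145, limma adjusted p = 0.352). The authors' deposited table annotates this form too as an NMD form, whereas GENCODE v29 classes the 1 transcript that holds the exon as protein coding. With any single library left out, 0 RBM events passed, also without adjustment.

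**Figure D4:**
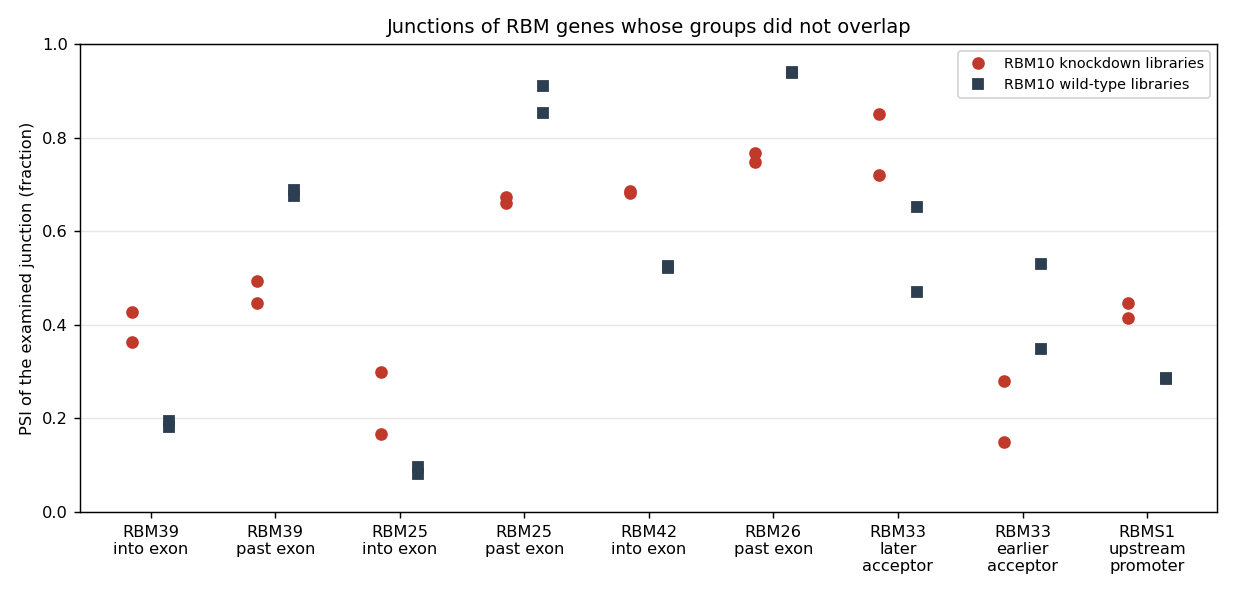
PSI of 9 examined junctions of RBM39, RBM25, RBM42, RBM26, RBM33 and RBMS1 in each library, with knockdown libraries as red circles and wild-type libraries as dark squares. The groups do not overlap in any of these junctions, which were drawn because of that. A further junction without overlap, at a 3′ splice site of RBM26, was not drawn. Of those drawn, the RBM39 junctions and the RBM25 junction past the exon passed the unadjusted rule.

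The coding exons of RBM42 and RBM26 had replicates that lay close together. In RBM42, the junction into the 66-bp exon had a PSI of 0.681 and 0.687 in knockdown and of 0.525 and 0.520 in wild type. In RBM26, a partner of the nuclear exosome, the junction past the 72-bp exon had a PSI of 0.747 and 0.767 in knockdown and of 0.938 and 0.940 in wild type. Both thus lay on the side of more inclusion in knockdown libraries, with PSI differences of 0.161 and -0.182, without passing (limma adjusted p = 0.291 and 0.280). Of all tested cassette inclusion junctions, 12.3% were higher in knockdown and 7.15% lower by the unadjusted rule. Of all tested skipping junctions, 16.9% were lower and 4.41% higher, so the side taken by these 4 genes is also the more common one in the table.

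In RBM33, the junction to the later of the 3′ splice sites, which leaves out the 3 bases in capitals above, had a PSI of 0.721 and 0.850 in knockdown and of 0.471 and 0.652 in wild type. The difference was 0.224 and did not pass (limma adjusted p = 0.281). In RBMS1, the junction from the upstream promoter had a PSI of 0.415 and 0.447 in knockdown and of 0.285 and 0.287 in wild type, a difference of 0.145 (limma adjusted p = 0.319). A 3′ splice site of RBM26 upstream of the 72-bp exon had a PSI of 0.205 and 0.176 in knockdown and of 0.210 and 0.364 in wild type (limma adjusted p = 0.548). Its groups did not overlap, but wild-type replicate 2 lay apart from the other 3 libraries.

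In the only listed event of RBM6, of the cassette type, the junction had a PSI of 0.653 and 0.557 in knockdown and of 0.738 and 0.574 in wild type, with overlapping groups and a 95% interval of the difference of -0.289 to 0.187. The listed intron retention event of RBM15, an adaptor of the m6A writer, had a PSI of 0.667 and 0 in knockdown and of 0.586 in the 1 wild-type library with a value, and was not tested. The other events, in RBM41, RBM47, RBM12B, RBM14-RBM4 and at another acceptor of RBM26, had overlapping groups, differences between -0.049 and 0.14, and did not pass.

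RBM proteins work in complexes, and genes of those complexes were followed beside them. Of 36 partner genes followed, 34 were tested, of which 6 fell and 0 rose in limma (17.6% lower, against 7.03% of all tested genes). The share past the test in either direction was also 17.6%, against 22.3% of all tested genes. The median log2 change of the 34 was -0.16, against 0.023 over all tested genes. In 19 of the 34 both knockdown libraries lay below wild type (55.9%, against 27.3% of all tested genes), and in 2 both lay above (34.3% of all tested genes). The list was drawn up with earlier results of these data known.

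Of 3 genes of paraspeckles, the setting in which RBM14 acts, SFPQ and PSPC1 fell. SFPQ was at 35.0 and 39.4 RPKM in knockdown and at 59.5 and 50.8 RPKM in wild type (log2 change -0.55, limma adjusted p = 0.00684), and PSPC1 at 7.25 and 8.69 RPKM in knockdown and at 12.1 and 12.2 RPKM in wild type (log2 change -0.56, limma adjusted p = 0.00774). NONO, which pairs with SFPQ, did not pass, with a 95% interval of -0.35 to 0.056. PSPC1 no longer passed without knockdown replicate 1 (limma adjusted p = 0.0754), nor SFPQ without a filter on low values (limma adjusted p = 0.0504).

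In the exon junction complex, MAGOHB, a partner of RBM8A, was at 8.50 and 7.69 RPKM in knockdown and at 12.3 and 11.3 RPKM in wild type. Its log2 change was -0.49 (SE 0.11, limma adjusted p = 0.0118), and it did not pass without knockdown replicate 2 (limma adjusted p = 0.0948). MAGOH, EIF4A3 and CASC3, the other 3 genes of the complex, did not pass. Among the spliceosome partners, SF1, which recognises the branch point, was at 33.9 and 36.4 RPKM in knockdown and at 51.7 and 51.8 RPKM in wild type (log2 change -0.55, limma adjusted p = 0.00327). LUC7L, a U1 snRNP protein, was at 9.67 and 9.99 RPKM in knockdown and at 14.3 and 14.4 RPKM in wild type (log2 change -0.50, limma adjusted p = 0.00687).

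Of 6 genes of the m6A writer, which RBM15 recruits to RNA, WTAP fell. It was at 4.36 and 4.72 RPKM in knockdown and at 6.71 and 5.98 RPKM in wild type (log2 change -0.41, limma adjusted p = 0.0313). WTAP lost that call without knockdown replicate 1, knockdown replicate 2 or wild-type replicate 1, and without a filter on low values (limma adjusted p = 0.0814). None of the 7 tested minor spliceosome genes and none of the 4 genes of nuclear exosome targeting passed. CIRBP, the cold-inducible relative of RBM3, had a log2 change of 0.19 (95% interval -0.050 to 0.42) and did not pass.

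**Figure D5:**
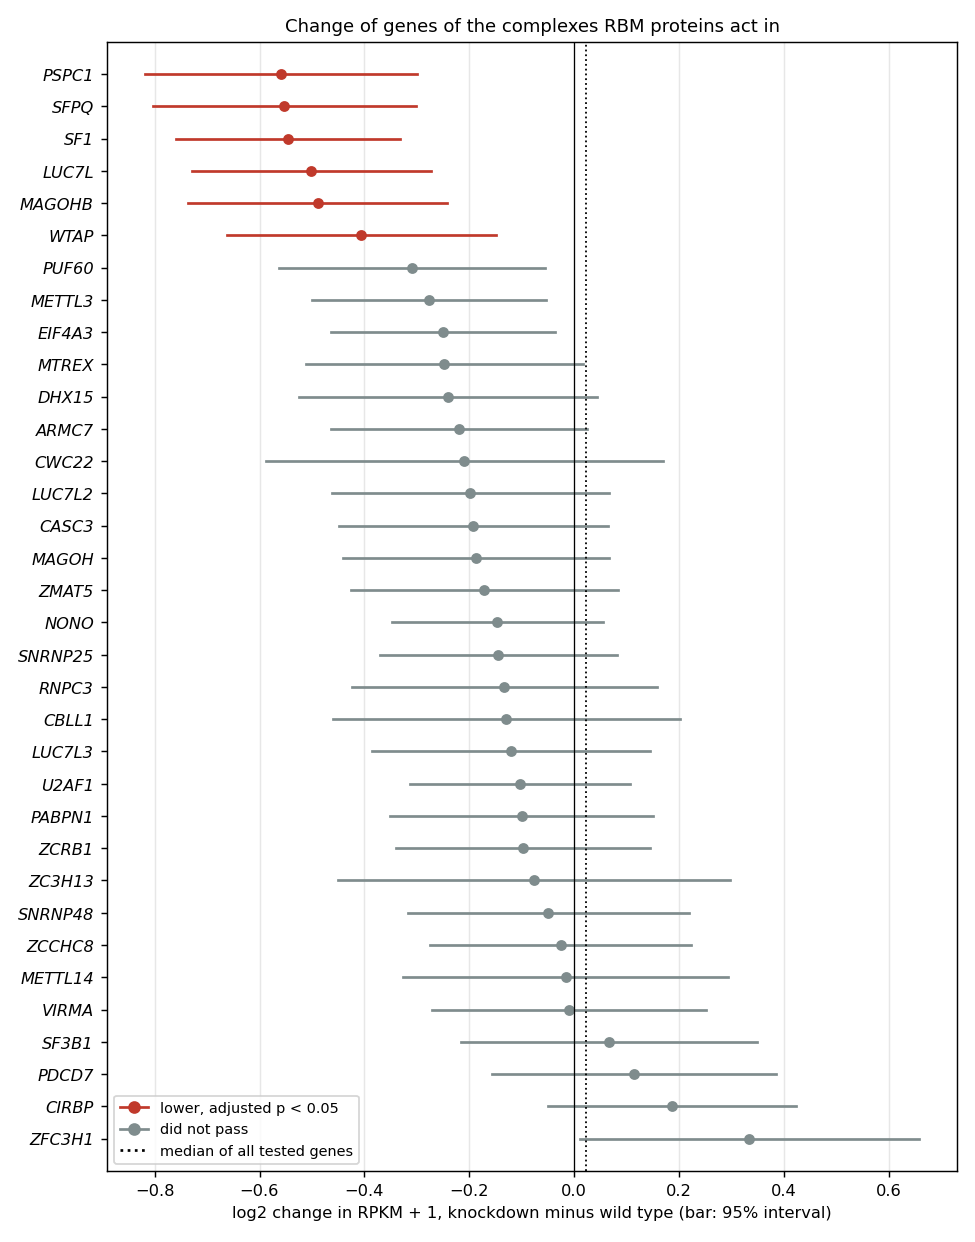
Log2 change in RPKM + 1 (knockdown minus wild type) of the 34 tested genes of complexes in which RBM proteins act, with 95% intervals. Red marks genes lower at an adjusted p under 0.05, and grey those that did not pass. The dotted line is the median of all tested genes. PSPC1 is lowest at -0.56, and 6 genes are red.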

How the data were processed

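Of the 4 libraries, per the labels' protocols, poly-A RNA was made into stranded TruSeq libraries. Per the submitters' processing notes, STAR 2.6.1 and hg38 were used; the sources used here name no counter, annotation or splicing caller. Expression was deposited by the authors as values with the form of RPKM (the unit is inferred from the values), with no read counts, and PSI as a fraction per examined junction, with dPSI as the spread over libraries. Gene IDs were named from a gene table (16921 of 17041) and GENCODE v29 (85 more).

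Expression was compared as log2(RPKM + 1) in genes whose mean reached 1 RPKM in either group, and PSI in events with 4 values, with limma 3.58.1 in R 4.3.3 (two-sided, Benjamini-Hochberg over the whole table, threshold 0.05, trend for expression only, no covariate), tested on simulated data. Named in full were RBM10, RBM5, RBM6, members past the test and members with an event; others by role. Members with an unadjusted p under 0.05, RBM20, RBM7, RBM4 and the spliceosome members were added after their values were seen. Members and lists were chosen with earlier results of these data known, and 1 partner gene is not reported here. Alternatives changed the pseudocount, filter, scaling, trend, block, PSI scale and libraries.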

Additional observations from a re-analysis of the deposited data

How the results depend on the processing

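RBM10, RBM14, RBM14-RBM4, RBM3 and RBM33-DT kept their calls in all 12 alternatives of the expression fit, as did SF1 and LUC7L. RBM8A kept its call in 9, RBMX in 6, MAGOHB, PSPC1 and SFPQ in 11 each and WTAP in 7. The count of RBM genes past the test was 5 to 8 with a library left out, and that of all genes 1707 to 1998. Without a filter on low values the median log2 change of the RBM genes was -0.042 over 42 rows, against -0.16, since low genes then enter. Quantile normalization gave 1031 lower and 1140 higher genes over all, against 716 and 1555.

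The labels do not say that replicate numbers pair the libraries, and deviations of same-numbered libraries correlated at -0.444 in expression and -0.0396 in PSI. With the replicate number as a block, 1718 genes passed, 5 of them RBM genes and 5 partners; RBM8A, RBMX and WTAP lost their calls there. With crossed numbers, an alternative chosen after seeing the data, 4196 genes, 18 RBM genes and 11 partners passed.

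Of RBM events past the unadjusted rule, 0 were left with the replicate block and 0 to 0 with any library left out, against 3 (all events: 310 to 374, against 689). The logit scale left 2, the RBM25 junction and, in place of RBM39, the RBM26 exon. Values that had not passed changed sign as follows, the cause not being tested: with a library left out the log2 change lay between -0.58 and 0.060 for RBM25, -0.16 and 0.050 for RBM26, -0.00053 and 0.18 for RBM33 and -0.24 and 0.022 for RBM6, and the PSI difference of the RBM6 event between -0.133 and 0.0312. RBM33 was also at -0.048 under quantile and -0.023 under cyclic loess normalization, and RBM41 at -0.012 under quantile normalization. PSI has unknown depth, which limits all splicing statements.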
